A study of Mus musculus with 6 samples.

Results

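Abca1, Abcg1, Abca9, Nr1h2, Nr1h3, Insig1, Srebf2 and Soat1 are genes of cholesterol export, sterol sensing, sterol synthesis and cholesterol storage. They were taken by symbol as genes of this pathway, and all 8 were found among the 32285 features counted in every library. Their unique molecular identifiers (UMIs, each standing for 1 captured transcript) were followed in microglia, border macrophages and neutrophils of the adult mouse brain and across 6 single-cell libraries.

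The study asked whether a change of 10x Genomics 3′ chemistry altered the profiles of sorted brain myeloid cells. Whole brains of 3 male C57BL/6J mice at postnatal day 89 were dissociated by cold Dounce homogenization, and live cells positive for both CD45 and CD11b were sorted. Mice 1 and 3 were processed without inhibitors (DNC-NONE), and mouse 2 with a cocktail that blocks transcription and translation (DNC-INHIB). Cells of each mouse were loaded on the V3.0 and on the V3.1 kit, which gave 3 libraries per kit. The sort gate takes in microglia, the macrophages of the brain's borders, monocytes and neutrophils. The inhibitor group was a single mouse, so an effect of the cocktail cannot be told apart from that animal.

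Macrophages cannot break down the sterol ring, so cholesterol taken up from debris or lipoproteins is either exported or stored as ester droplets. Oxysterols activate the liver X receptors, which switch on exporters and apolipoprotein genes, while low sterol in the endoplasmic reticulum releases the SREBP factors, which switch on synthesis and uptake. In the brain, which makes its own cholesterol, microglia handle the sterol of myelin debris by this system.

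Abca1 (ENSMUSG00000015243) encodes the transporter that loads cholesterol and phospholipid onto lipid-poor apolipoproteins, and lies on the minus strand of mm10 chr4:53030787-53159895. Abcg1 (ENSMUSG00000024030, chr17:31057675-31117988, plus strand) encodes a transporter, working as a dimer, that passes cholesterol on to lipid-bearing particles. Abca9 (ENSMUSG00000041797, chr11:110100749-110168196, minus strand) encodes a transporter of the same A subfamily whose substrate is less well known. Nr1h2 (ENSMUSG00000060601, chr7:44549616-44553951, minus strand) and Nr1h3 (ENSMUSG00000002108, chr2:91184061-91202834, minus strand) encode liver X receptors β and α. Srebf2 (ENSMUSG00000022463, chr15:82147181-82205379, plus strand) encodes SREBP-2, the main activator of the sterol synthesis genes, and Insig1 (ENSMUSG00000045294, chr5:28071363-28078662, plus strand) encodes a protein that holds the SREBP complex in the endoplasmic reticulum. Soat1 (ENSMUSG00000026600, chr1:156424525-156474331, minus strand) encodes the enzyme that esterifies cholesterol for storage. These are GENCODE M21 gene bounds on GRCm38, and values are whole-gene counts from 3′ reads with no length scale, so levels are compared within a gene and not between genes. Nr1h3 overlaps the counted transcript Gm13783 on its own strand, so its few UMIs are uncertain.

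Promoter windows of 300 bases, from 250 before to 50 after the start in RefSeq on GRCm38.p6, were at hand for 7 of the 8 genes, all but Abcg1. The strict liver X receptor element, 2 copies of AGGTCA in the same direction with 4 free bases between them, was in 0.0396% of 32851 windows and in none of the 7. The exact sterol regulatory element, the site that SREBP factors bind, was in 0.116% of windows and in none of the 7. Both strands were searched. Looser forms were then tried, after those results were seen, and 10 forms were searched in all. With NGGTNA in place of each AGGTCA, which takes in the strict form, 0.743% of windows held a match, Abca1 among them from -67 to -52 on the strand opposite to the gene. With at most 1 mismatch to the sterol regulatory element, 1.98% of windows held a match, among them Srebf2 from -163 to -154 on the strand of the gene and Abca9 from -135 to -126 on the opposite strand. With 2 mismatches the liver X receptor element was in 3.05% of windows and in none of the 7, and with 3 it was in 21.9%, with Abca1 and Insig1 among them. The sterol regulatory element with 2 mismatches was in 22.9% of windows, and Nr1h3 was then also matched. The E-box, CACGTG, was in 7.17% of windows and in 2 of the 7, the CCAAT box in 37.4% and in 3, and the GC box, GGGCGG, in 35.7% and in 4. Sequence upstream is shown for Abca1, matched by the NGGTNA form, and for Abca9 and Srebf2, matched with at most 1 mismatch. Each is written in the direction of its gene and ends where the GENCODE gene begins, so the last 43 bases (Abca9) and 88 bases (Srebf2) before the RefSeq start are left out, and the positions above count from the RefSeq start. The capitals mark the matched letters, and a match is a description and not a binding site.
Abca1, chr4:53159896-53160145, minus strand: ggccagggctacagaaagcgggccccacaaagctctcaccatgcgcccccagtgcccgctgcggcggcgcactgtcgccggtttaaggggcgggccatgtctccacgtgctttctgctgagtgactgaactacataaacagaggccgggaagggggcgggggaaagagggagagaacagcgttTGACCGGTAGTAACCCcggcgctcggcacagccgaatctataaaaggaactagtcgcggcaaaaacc
Abca9, chr11:110168197-110168403, minus strand: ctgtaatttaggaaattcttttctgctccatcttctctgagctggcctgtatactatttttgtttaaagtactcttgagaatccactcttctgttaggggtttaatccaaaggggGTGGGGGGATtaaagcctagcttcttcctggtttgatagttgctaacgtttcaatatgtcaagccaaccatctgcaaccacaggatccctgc
Srebf2, chr15:82147019-82147180, plus strand: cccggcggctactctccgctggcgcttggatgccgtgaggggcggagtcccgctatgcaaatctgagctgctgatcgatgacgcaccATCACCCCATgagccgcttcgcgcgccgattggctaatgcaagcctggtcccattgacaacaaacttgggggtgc

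The libraries held 6275898 to 18872816 UMIs in 3689 to 6130 barcodes. The V3.0 library of mouse 3 stood apart, with 21.5% of its barcodes passing the filter against 70.0% to 76.8% in the other 5 and a median of 809 UMIs per barcode, and it supplied 907 of 19023 microglia. In all, 19725 of 29412 barcodes passed, and marker genes, none of them a member, assigned 19023 to microglia, 40 to border macrophages and 331 to neutrophils. Of 29314 distinct barcode sequences, 98 occurred in 2 or more libraries. The border macrophages numbered 13, 20 and 7 in mice 1, 2 and 3, and the neutrophils 130, 109 and 92, at a median of 4259 UMIs and 5420 UMIs per cell against 3511 in microglia. The summed microglial markers reached 8.35% of their microglial level in border macrophages and 7.33% in neutrophils, no lymphocyte marker had a UMI in border macrophages, and 20 of the 40 border macrophages held 3 or more of the 7 microglial markers.

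Of the 8 genes, Abca9 and Abca1 had a UMI in the largest shares of microglia and the receptor Nr1h3 in the smallest. An Abca9 UMI was found in 69.7% of microglia, an Abca1 UMI in 54.7%, a Soat1 UMI in 30.3% and an Abcg1 UMI in 28.1%. The shares were 15.2% for Nr1h2, 7.70% for Srebf2, 3.73% for Insig1 and 0.189% for Nr1h3. These shares depend on depth: with each cell thinned to 2000 UMIs, which left out 760 microglia, they were 50.3% for Abca9, 38.6% for Abca1, 18.9% for Soat1, 17.7% for Abcg1, 8.70% for Nr1h2, 4.38% for Srebf2, 2.11% for Insig1 and 0.104% for Nr1h3. Of the 19023 microglia, 6.75% held no UMI of any of the 8 genes and 34.1% held UMIs of exactly 2 of them. The neuronal gene Snap25, which microglia should lack, had a UMI in 0.205% of them, a share as large as that of Nr1h3, and the 37 UMIs of Nr1h3 in 36 microglia were not read as expression.

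Microglial levels of Abca1, Abca9, Abcg1, Nr1h2 and Soat1 were steady over the 3 animals. Abca1 was at 255, 270 and 296 counts per 1000000 UMIs (CPM) in mice 1, 2 and 3, with a mean of 273 ± 20.7 (SD, n = 3 mice). Abca9 was at 345, 386 and 378 CPM, and Abcg1 at 103, 107 and 98.8 CPM. Nr1h2 was at 43.7, 50.3 and 42.9 CPM. The spread over mice was therefore small for Abca1, Abca9 and Abcg1 and for the β receptor. Among the sterol regulators, Srebf2 was at 25.4, 23.4 and 17.8 CPM and Insig1 at 12.9, 9.81 and 9.84 CPM. Their spread was wider for their level, with means of 22.2 ± 3.98 and 10.9 ± 1.80 CPM (SD, n = 3 mice). Soat1 was at 106, 114 and 106 CPM. Within a library, the variance of UMIs per microglial cell over their mean, at equal depth, had a median of 1.20 for Abca1 and of 1.1 for Abca9 over the 6 libraries, where pure counting gives a value of 1. Detection of Abca1 together with Abcg1 occurred 1.07 to 1.21 times as often as the product of their shares, and Abca1 together with Abca9 0.969 to 1.03 times as often. These ratios are descriptions of sparse counts, and cells of a library are not replicates.

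**Figure D1:**
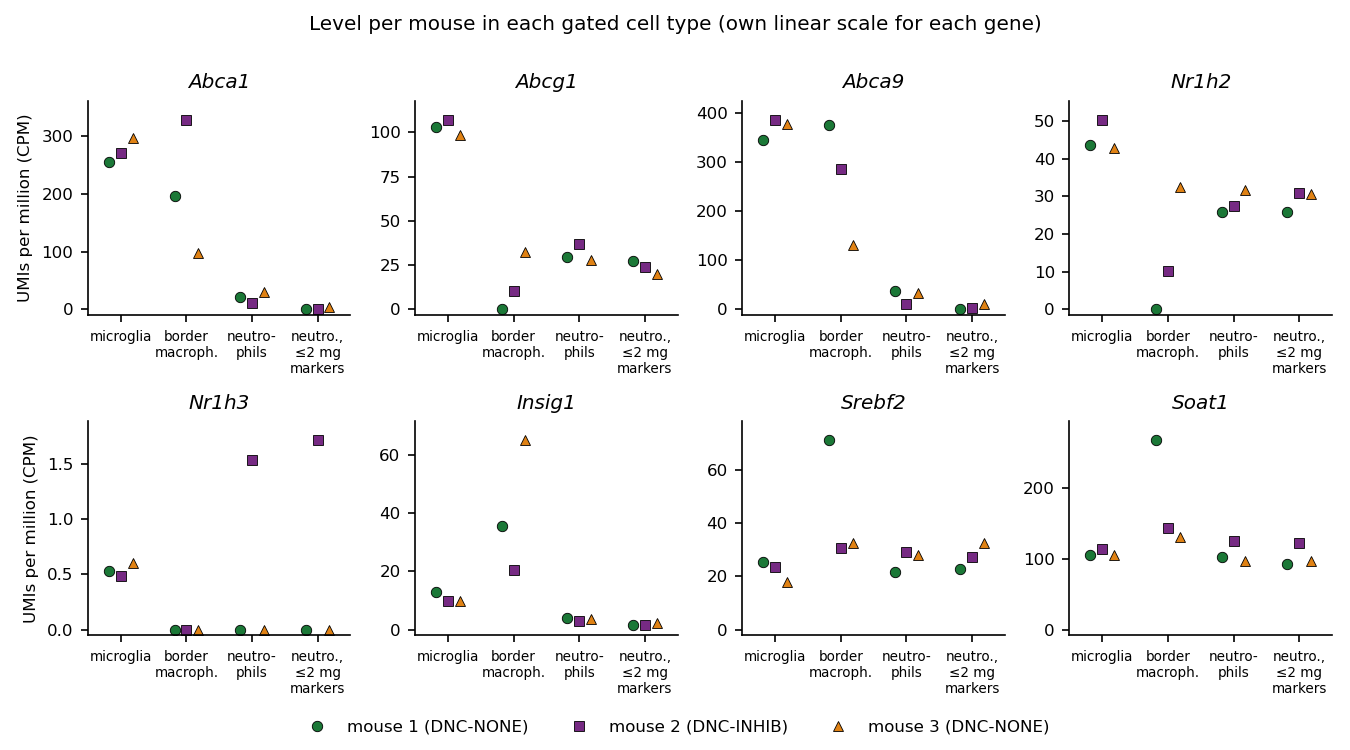
Level of each of the 8 genes in CPM, on a linear axis of its own, with 1 point per mouse, in microglia, border macrophages, all neutrophils and the neutrophils with at most 2 microglial (mg) markers. Abca1 and Abca9 overlap their microglial range in the border macrophages, where mouse 3 is lowest (97.8 and 130 CPM), and lie far below it in neutrophils, while Abcg1 is at 0, 10.2 and 32.6 CPM in the border macrophages.

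In border macrophages, which sit in the meninges, the perivascular spaces and the choroid plexus, Abca1 and Abca9 were not called different from microglia, Abcg1 was lower, and Soat1 was higher in the fit but not in most alternative fits. For Abca1, the border macrophages of mice 1, 2 and 3 held 11, 32 and 3 UMIs, or 196, 328 and 97.8 CPM. For Abca9 they held 21, 28 and 4 UMIs, or 375, 287 and 130 CPM. The values of mouse 3, from 7 cells, were the lowest for both. The microglial values of Abca1 lay inside the range over these mice, and those of Abca9 overlapped its upper end. Pooled, Abca1 stood at 91.6% of its microglial CPM (95% exact interval 67.0 to 122) and Abca9 at 77.6% (58.1 to 102). The summed microglial markers stood at 8.35%, but they are part of the gate, which keeps them low in these cells. The microglial transcripts C1qa, C1qb, C1qc and Fcrls, not used for the gate, stood at 59.5% to 86.0%. The share of these UMIs that is microglial RNA was not tested. The intervals cover counting error only. In the 24 border macrophages that held at most 2 markers of any other type, Abca1 was at 208 CPM and Abca9 at 362 CPM.

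Abcg1 had 0, 1 and 1 UMIs in the border macrophages of mice 1, 2 and 3, or 0, 10.2 and 32.6 CPM, against 98.8 to 107 CPM in microglia. All 3 animals thus lay below every microglial value. The pooled level was 10.5% of the microglial CPM (1.27 to 37.9). In edgeR's quasi-likelihood test on sums per mouse and cell type, Abcg1 was lower in border macrophages by a log2 fold change of -3.06 (SE 0.73, adjusted p 0.000482), and Soat1 was higher by 0.90 (SE 0.31, adjusted p 0.0343). A gene was called at an adjusted p under 0.05 with a log2 change beyond 0.58, and 2 of the 7 members tested were called beside 12.7% of the 8023 genes tested. Where 2 border markers sufficed, the 14 cells added brought Abcg1 from 2 to 14 UMIs and its fold change to -0.63, and it was not called. With total UMI scaling, where 16.4% of genes were called, Abcg1 stayed called at -3.27. It was not called in the V3.1 libraries alone (-2.90, adjusted p 0.0699).

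For Soat1 the border macrophages held 15, 14 and 4 UMIs, or 268, 143 and 130 CPM in mice 1, 2 and 3, against 106 to 114 CPM in microglia. Mouse 1 was the highest, and all 3 lay above the microglial values. The call was lost in 10 of 16 alternative fits, with fold changes from 0.55 without mouse 1 to 1.02 without mouse 2, and at 0.89 (adjusted p 0.0549) without the V3.0 library of mouse 3. The log2 fold changes of Abca1 (0.06, 95% interval -0.42 to 0.55) and Abca9 (-0.17, -0.61 to 0.28) were not called, and that of Abca1 was negative with total UMI scaling (-0.14) and, at -0.77, without mouse 2. In the V3.1 libraries alone Abca9 was called lower (-1.20, adjusted p 0.0410), against 0.03 in the V3.0 libraries alone. The interaction of kit with cell type was called for none of the 6 members tested in either minority cell type, beside 0.0163% (border macrophages) and 0.0653% (neutrophils) of 6122 genes, and Abca9 in border macrophages was the 1 member with an unadjusted p under 0.05 (-1.14, unadjusted p 0.0299 in edgeR).

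The receptors and sterol regulators were too thinly counted in border macrophages for a firm comparison. Nr1h2 had 0, 1 and 1 UMIs and stood at 23.6% of its microglial CPM (2.85 to 85.2). Insig1 had 2 UMIs in each mouse, or 35.7, 20.5 and 65.2 CPM, and stood at 300.2% (110 to 657). Srebf2 had 4, 3 and 1 UMIs, or 71.4, 30.7 and 32.6 CPM, and stood at 193% (83.3 to 382). All 3 mice lay above the microglial range for both Insig1 and Srebf2, but the log2 changes of 1.80 (adjusted p 0.144) and 1.13 (adjusted p 0.297) did not pass in edgeR, nor did Nr1h2 at -1.89 (adjusted p 0.156). Nr1h3 had no UMI among 184343, which allows a level of up to 16.3 CPM, far above its microglial level of 0.537 CPM, so a difference was not detectable at this depth.

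**Figure D2:**
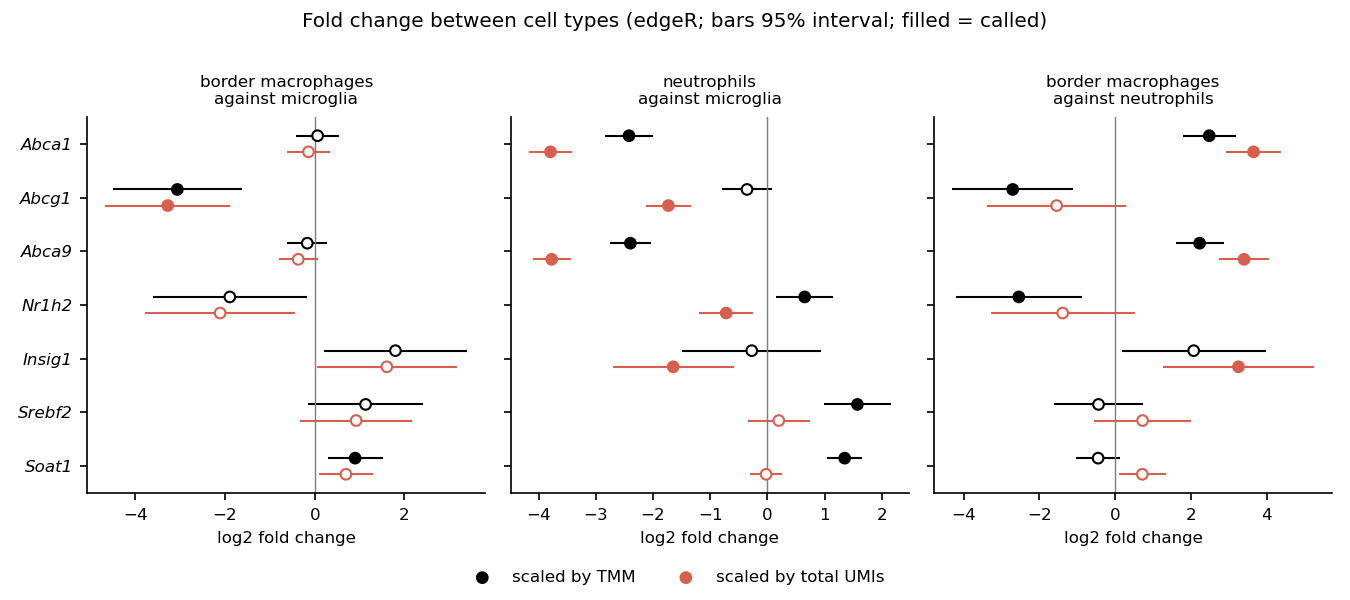
Log2 fold changes of the members between cell types in edgeR's fit over 9 sums of 3 mice by 3 cell types, with the 95% interval of each as a bar, filled points for called genes, black for TMM and red for total UMI scaling. Abcg1 is lower in border macrophages than in microglia, at -3.06, and Abca1 and Abca9 are lower in neutrophils, at -2.42 and -2.40. With total UMI scaling the neutrophil fold changes of Nr1h2 and Soat1 turn negative, to -0.72 and -0.02.

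In neutrophils, short-lived granulocytes of the blood, Abca1 and Abca9 were lower than in microglia in each mouse, and the UMIs they did have lay in a minority of barcodes that also carried microglial markers. Abca1 had 16, 7 and 16 UMIs in mice 1, 2 and 3, or 20.6, 10.7 and 29.8 CPM. Abca9 had 29, 7 and 18 UMIs, or 37.3, 10.7 and 33.6 CPM. Both were lowest in mouse 2, and every neutrophil value lay below every microglial value. Pooled, Abca1 stood at 7.28% of its microglial CPM (5.18 to 9.96) and Abca9 at 7.42% (5.57 to 9.68). The transcripts C1qa, C1qb, C1qc and Fcrls, which neutrophils should lack and which were used as a gauge of microglial RNA, stood at 7.0% to 7.42%. The Abca1 and Abca9 percentages thus lay beside those of the gauge and were not read as expression by neutrophils, and the source of these UMIs was not tested.

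These UMIs lay in few barcodes. Of the 331 neutrophil barcodes, 49 carried 3 or more microglial markers, and these held 89.8% of the gauge UMIs, 37 of the 39 Abca1 UMIs and 46 of the 54 Abca9 UMIs. The barcodes were split by 7 microglial markers, none of them a gauge gene or a member, and other microglial transcripts are bound to gather with those markers. In those 49 the gauge stood at 45.9% to 49.4% of its microglial level, Abca1 at 50.9% and Abca9 at 46.6%. In the other 282 the gauge stood at 0.800% to 0.899%, with Abca1 at 2 UMIs, or 0.432% (0.0523 to 1.56), and Abca9 at 8 UMIs, or 1.27% (0.549 to 2.50). No doublet caller was run, and whether the 49 barcodes hold a microglial cell beside a neutrophil was not tested.

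**Figure D3:**
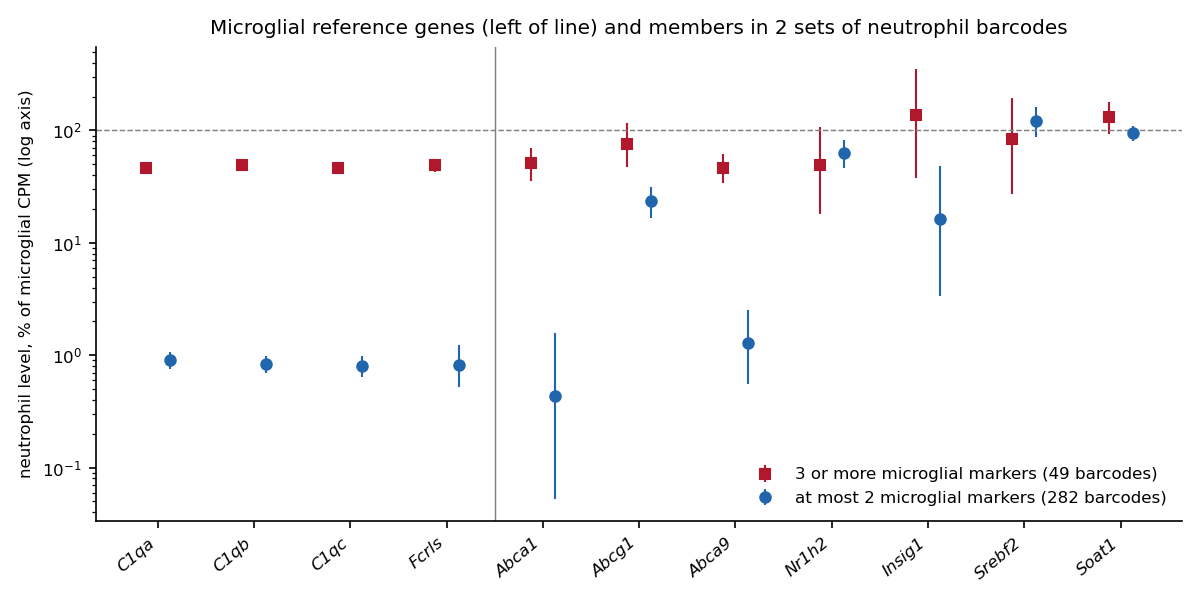
Neutrophil level of the 4 gauge genes (left of the line) and of 7 members (right of it) as a percentage of the microglial CPM, on a log axis with 95% exact counting intervals, in the 49 barcodes with 3 or more microglial markers (squares) and in the other 282 (circles). Abca1 and Abca9 sit with the gauge in both sets, at 50.9% and 46.6% in the squares and at 0.432% and 1.27% in the circles. The intervals of the 2 sets overlap for Nr1h2, Insig1, Srebf2 and Soat1.

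Abcg1, Nr1h2, Srebf2 and Soat1 stood above the gauge in neutrophils. Abcg1 was at 29.6, 36.8 and 28.0 CPM in mice 1, 2 and 3, or 30.5% of its microglial CPM pooled (23.4 to 39.2), and 23.3% (16.7 to 31.7) in the 282 barcodes. Nr1h2 was at 25.7, 27.6 and 31.7 CPM, or 60.7% pooled and 62.6% in the 282. Each neutrophil value of these 2 genes lay below each microglial value on this scale. Srebf2 was at 21.9, 29.1 and 28.0 CPM and Soat1 at 103, 126 and 97 CPM, so that both overlapped their microglial range, at 116% and 99.9% pooled. Insig1 had 3, 2 and 2 UMIs, or 32.8% of its microglial CPM (13.2 to 68.0), and 3 UMIs in the 282 barcodes. Nr1h3 had 1 UMI in 331 neutrophils.

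The neutrophil differences of these genes depended on the scale, in direction or in call. The neutrophil markers, which include the very abundant S100a8 and S100a9, took 42.7% of neutrophil UMIs and 0.0914% of microglial UMIs, so a share of the total falls for any other gene. TMM, which sets the bulk of genes level, put the median log2 fold change of all genes at -0.15, and total UMI scaling put it at -1.52. With TMM, 5 of the 7 members tested were called in neutrophils against microglia, beside 60.6% of the 8023 genes (29% higher, 31.6% lower). Abca1 (-2.42, adjusted p 3.04e-28) and Abca9 (-2.40, adjusted p 6.57e-37) were lower in edgeR, and both were called lower in all 16 alternative fits, at -3.79 and -3.77 with total UMI scaling and at -6.34 and -4.78 with the 282 barcodes, where 65.3% of genes were called. Srebf2 was higher with TMM (1.57, SE 0.30) and not called with total UMIs (0.20). Soat1 was likewise higher with TMM (1.35, SE 0.16) and not with total UMIs (-0.02). Nr1h2 was higher with TMM (0.65, SE 0.25, adjusted p 0.0182), was called lower with total UMIs (-0.72), and was not called in 8 of the 16 alternatives. Abcg1 was not called with TMM (-0.36, adjusted p 0.148) and was called lower with total UMIs (-1.73) and, at -0.60, in the 282 barcodes, and Insig1 went from -0.27 with TMM to -1.65, called lower, with total UMIs. With TMM in the V3.0 libraries alone, 3 of the 5 members tested were called lower, beside 28.3% of genes. With total UMIs 85.3% of all genes were called, 11.5% higher and 73.8% lower, so that a member's call on either scale is close to the rule for all genes.

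Between the 2 minority cell types, Abca1 (2.48, SE 0.36) and Abca9 (2.23, SE 0.32) were higher in border macrophages than in neutrophils, and both remained higher with total UMI scaling. With TMM 4 of the 7 members tested were called, beside 32.1% of all genes. Abcg1 (-2.70) and Nr1h2 (-2.54) were called lower in border macrophages with TMM and not with total UMIs (-1.54 and -1.38), where 38.3% of all genes were called. Without mouse 1 and without mouse 2, 0 members were called lower, beside 16.7% and 15.6% of all genes. DESeq2 called 1 member lower, beside 16.4% of all genes. Insig1 was not called with TMM (2.07, adjusted p 0.0887) and was called higher with total UMIs (3.25). Srebf2 and Soat1 were not called under either scaling, and their sign turned from -0.44 and -0.45 to 0.72 for both. Abca1 was not called without mouse 2 (1.38), nor Abca9 in the V3.1 libraries alone (1.29). These comparisons share their cells with those above and are not separate evidence.

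The kit comparison in microglia, the one the series was made for, gave no called member. Abca1 was at 262, 273 and 286 CPM in the V3.0 libraries of mice 1, 2 and 3 and at 245, 267 and 297 CPM in the V3.1 libraries. Abca9 was at 335, 392 and 385 CPM with V3.0 and at 357, 380 and 377 CPM with V3.1. The kits overlapped for both transporters. Nr1h2 was at 48.3, 54.9 and 48.0 CPM with V3.0 and at 37.6, 45.0 and 42.0 CPM with V3.1. Each mouse gave the lower Nr1h2 value with the newer kit, and the kits did not overlap. Soat1 was at 95.9, 103 and 109 CPM with V3.0 and at 119, 127 and 105 CPM with V3.1, higher in 2 of 3 mice. Abcg1 was at 107, 109 and 103 CPM with V3.0 and at 97.4, 105 and 98 CPM with V3.1. It too was lower with the newer kit in each mouse, though the kits overlapped. The kits also overlapped for Srebf2, Insig1 and Nr1h3.

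In edgeR's test of V3.1 against V3.0, 0 of the 7 members tested were called, beside 3.04% of 12044 genes. Nr1h2 had a log2 fold change of -0.27 (SE 0.09, adjusted p 0.0731) and Soat1 one of 0.22 (SE 0.08, adjusted p 0.0977). Both, alone among the members, had an unadjusted p under 0.05, as did 3541 of the 12044 genes. DESeq2 also called 0 of the 7, beside 2.47% of all genes. In it 2 members had an unadjusted p under 0.05, as did 2727 of the 12044 genes. Since both libraries of a number came from the same mouse, a fit with mouse as a replicate block was also made, and in it the adjusted p of Nr1h2 was 0.00663 and that of Soat1 was 0.00988, while their fold changes, -0.27 and 0.23, stayed under the size required for a call. With the block 4.52% of genes were called. The 95% intervals in the unblocked fit were -0.17 to 0.17 for Abca1, -0.14 to 0.19 for Abca9, -0.22 to 0.07 for Abcg1, -0.45 to 0.14 for Srebf2 and -0.36 to 0.35 for Insig1. Without the V3.0 library of mouse 3, no member was called either, beside 2.57% of all genes.

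**Figure D4:**
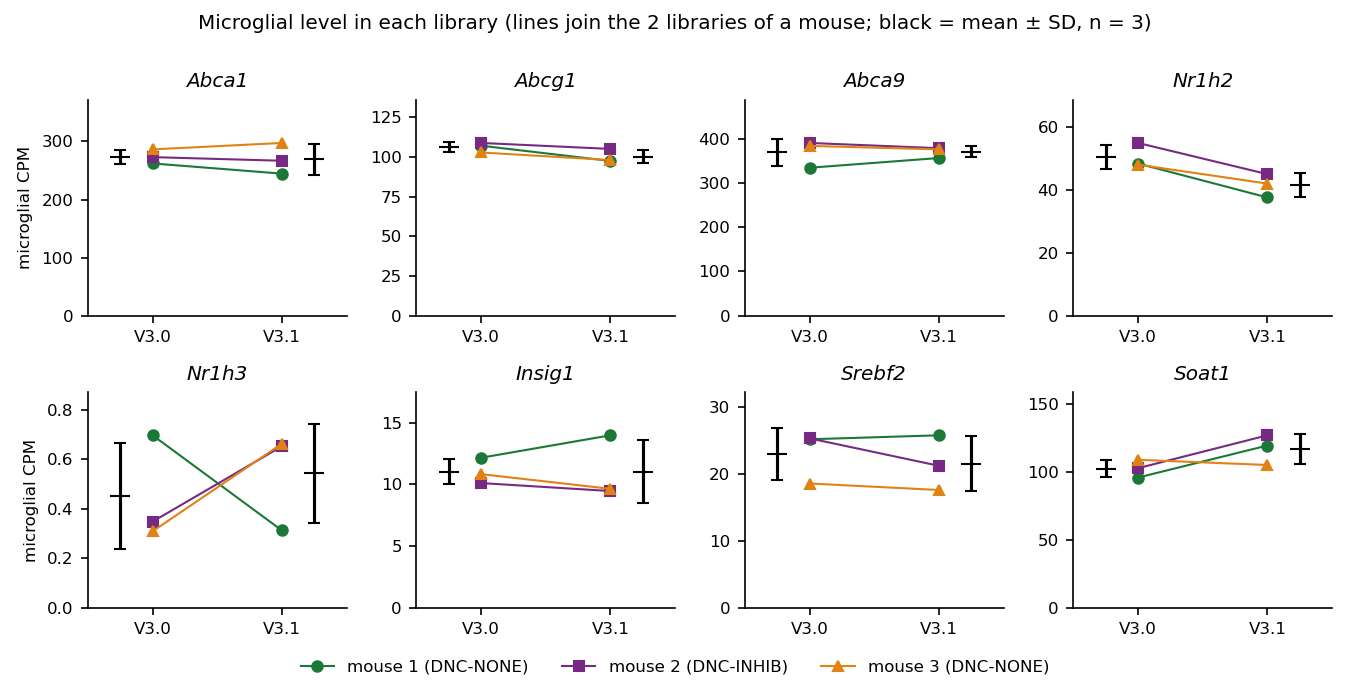
Microglial level of each member in CPM, on axes that start at 0, with a line joining the 2 libraries of 1 mouse and black marks for the mean and SD over the 3 libraries of a kit. The line of each mouse falls for Nr1h2, those of 2 of 3 mice rise for Soat1, and neither gene passed the call rule.

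The inhibitor cocktail was compared on microglial sums of 1 DNC-INHIB mouse against 2 DNC-NONE mice. None of the 8 members was called in edgeR or in DESeq2, beside 0.681% of 13217 genes in edgeR, and 1 and 0 of them had an unadjusted p under 0.05. The largest difference among the members in edgeR was that of Nr1h2, at 50.3 CPM in mouse 2 against 43.7 and 42.9 CPM, with a log2 fold change of 0.23 (95% interval 0.02 to 0.44, adjusted p 0.612). Abca1 in mouse 2 lay between the DNC-NONE mice (-0.01, -0.22 to 0.20), and Abcg1 (0.10), Abca9 (0.11), Soat1 (0.12), Srebf2 (0.13) and Insig1 (-0.20) had intervals that included 0. Only the 2 DNC-NONE mice gave spread within a group, with 1 residual degree of freedom, and the fit shares information on spread over genes. The intervals are therefore not a measured spread between animals for each gene.

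Over the 9 sums, each member's pattern was compared with that of the genes at 20 CPM or more by Pearson's r of log2(CPM + 1). The nearest genes were Ubap2l (r = 0.996) for Abca1, Txndc15 (0.994) for Abca9, Tnfrsf21 (0.991) for Abcg1 and Hbp1 (0.998) for Nr1h2. For Insig1 the nearest was Ccl2 (0.988), for Srebf2 Smdt1 (0.932) and for Soat1 Hgsnat (0.924). For Nr1h3 it was Msn (0.873), which was not read as a likeness. Nr1h3 had 37 UMIs in microglia, 0 in border macrophages and 1 in neutrophils. Soat1 and Srebf2 each ranked second for the other (0.922). The sums share libraries and differ in depth, 626 genes reached 0.9 with Abca1, and the values are descriptions of 9 points.

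Genes of the same pathways were read from 5 lists. Of 12 tested genes of the liver X receptor list, border macrophages had 3 higher and 4 lower than microglia in edgeR, beside 6.61% higher and 6.11% lower among all 8023 genes. Pltp, which transfers phospholipid between lipoproteins, was higher by a log2 fold change of 8.36, at 256 to 357 CPM in border macrophages against 0.555 to 1.33 CPM in microglia. Apoe, the main lipid carrier protein of the brain, was higher by 7.06, at 32278 to 63339 CPM against 309 to 525 CPM. Apoc2, the cofactor of lipoprotein lipase, was called at 4.73, from 6 UMIs of mouse 2 alone. Lpcat3 (-2.56), Mylip (-2.32), Arl4c (-1.85) and the phagocytic receptor Mertk (-1.58) were lower. The list therefore moved both ways, with a median of -0.14 against -0.27 over all genes. All 7 calls held with total UMI scaling and without the V3.0 library of mouse 3.

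Among the other lists, none of 8 tested sterol synthesis genes was called in border macrophages, at a median of 0.88, with 1 at an unadjusted p under 0.05 in edgeR, and DESeq2 called Pmvk (1.77) higher. Of 6 tested genes of SREBP control and uptake, Lrp1, an endocytic receptor for lipoproteins, was lower by a log2 fold change of -0.73 and none was higher. Of 7 tested genes of storage and lysosomal export, the droplet coat gene Plin2 (2.44), the oxysterol-forming Cyp27a1 (1.74) and the lysosomal cholesterol carrier Npc2 (1.17) were higher and none was lower. The call of Cyp27a1 was lost without the V3.0 library of mouse 3 (1.41), and that of Lrp1 with the 282 neutrophil barcodes in the fit (-0.72). Of 3 tested transporters outside the 8 members, Abcg2 was lower (-3.23), from 1 UMI in border macrophages. DESeq2 called neither Abcg2 nor Lrp1.

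In neutrophils the same lists depended on scale as the members did. With TMM, where 29% of all genes were higher and 31.6% lower, 7 of 8 tested synthesis genes were higher than in microglia and none lower, among them Idi1 (2.74), Msmo1 (1.49), Pmvk (1.48) and Sc5d (1.40). With total UMI scaling, where 11.5% of all genes were higher and 73.8% lower, only Idi1 remained higher (1.36) and Ebp was lower (-1.74). Of the SREBP control and uptake list none of 6 was higher and 5 were lower, Lrp1 the most (-1.73). Plin2 (2.88) and the ester hydrolase gene Nceh1 (2.13) were higher, while Cyp27a1 (-2.48), Npc2 (-1.24), Npc1 (-1.16) and Lipa (-0.94) were lower. Of the liver X receptor list 4 were higher and 6 lower, with Apoc2 (6.23) and Smpdl3a (3.32) leading the first group and Mertk (-2.35) and Scd2 (-2.28) the second. Abca7 was higher (2.95) and Abcg2 lower (-1.39). Under total UMI scaling Plin2, Nceh1, Apoc2, Smpdl3a and Abca7 remained higher, whereas Pltp (2.71 with TMM) and Ncor1 (1.86 with TMM) were no longer called.

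**Figure D5:**
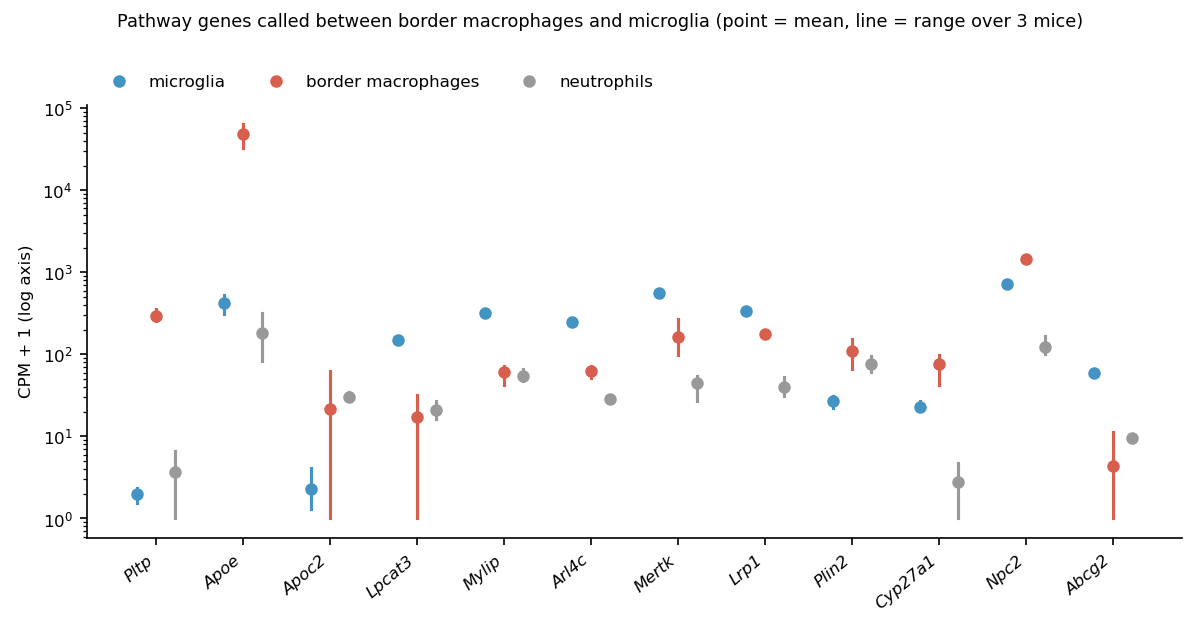
Level in CPM + 1, on a log axis, of the 12 pathway genes called between border macrophages and microglia, as the mean (point) and range (line) over 3 mice in each cell type. Apoe reaches 32278 to 63339 CPM in border macrophages and Pltp 256 to 357 CPM, each above its range in microglia and in neutrophils.

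Between kits no gene of the 5 lists was called in edgeR or in DESeq2, beside 3.04% and 2.47% of all genes. Of the 53 genes tested, 13 had an unadjusted p under 0.05 in edgeR, as did 3541 of all 12044. With the inhibitor cocktail, Apoc2 was higher in the microglia of mouse 2 by a log2 fold change of 3.12 in edgeR. Its microglial level was only 0.303 to 3.08 CPM over the mice, and the difference rests on that mouse. DESeq2 did not call Apoc2.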

How the data were processed

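Single-cell RNA-seq libraries of sorted CD45+ CD11b+ brain cells from 3 mice were analysed, 1 V3.0 and 1 V3.1 library per mouse. The authors deposited whole-number counts, the UMI counts per gene and barcode of the filtered matrices, made with bcl2fastq and Cell Ranger 5.0.0 against mm10. Their notes also name Seurat. Counts from the 3′ end carry no length, and overlapping genes can lose UMIs.

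Cells had to show 1000 to 4000 genes, no more than 12000 UMIs and a mitochondrial share of 15% or less, and no doublet caller was run. A cell was assigned to a type when it held 3 or more markers of that type and over 50% of its UMIs on the 5 marker lists lay there. The planned gate (at most 2 markers of every other type) left 24 border macrophages, 226 neutrophils and 15149 microglia, and was replaced after marker counts, and before member values, were seen. The 282 neutrophil barcodes with at most 2 microglial markers were split off after the member values were seen. The members and lists were chosen with earlier results of these data known.

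UMIs were summed per mouse and cell type (9 sums, mouse as a block, 4 residual degrees of freedom), per microglial library for kits (4) and per mouse for the cocktail (1). They were tested by edgeR's quasi-likelihood test after its expression filter and TMM scaling, with Benjamini-Hochberg adjustment over all genes. Nr1h3 passed the filter only for the cocktail. The cell type and kit tests rest on the same 3 animals and speak of these mice only. Their spread was estimated with information shared over genes, so a p-value does not measure a gene's own spread over the mice. Libraries of 1 mouse deviated together (residual r 0.543, 0.778 and 0.319 over 500 genes), so a fit with the replicate block was the kit alternative. Alternatives were total UMI scaling, RLE scaling, DESeq2, no expression filter, 500 genes per cell, other gates, each kit alone and each mouse or library left out. The code was tested on simulated data. List genes were named as at most 4 called genes in each direction, with the largest changes. Some genes of the lists and the gauge are not reported here and are left out of their counts. Poisson and binomial intervals are exact (95%) and cover counting error only, and the floor for 0 was 3 counts. Versions were R 4.3.3, edgeR 4.0.16, limma 3.58.1, DESeq2 1.42.0, Python 3.11.15, numpy 2.4.6, pandas 2.3.3, scipy 1.17.1 and matplotlib 3.10.9.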

Additional observations from a re-analysis of the deposited data

Results flagged for a closer look

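Of 18 groups of 6 libraries tested for a value far from the others, 5 had one, where chance gives about 1 in 20. In microglia, the share of cells with an Abca1 UMI was 49.4% in the V3.1 library of mouse 1, the lowest of the 6, and the share with an Abca9 UMI was 65.8% in that library, also the lowest. The share with a Soat1 UMI was 35.7% in the V3.1 library of mouse 2, the highest of the 6. The V3.0 library of mouse 3 had the lowest share of barcodes passing the filter, 21.5%, and the lowest median, 809 UMIs per barcode. In CPM, no library stood apart for any of the 8 members by the same measure. The cause of each was not tested.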

How the results depend on the processing

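Alternatives with total UMI scaling, the first gate, the wider border gate or only the 282 neutrophils were chosen after seeing the data. Border macrophages against microglia gave 1020 called genes, and 648 with V3.0 only, 626 with V3.1 only, 643 with the first gate, and 636 to 875 with a mouse left out. Neutrophils against microglia gave 4860, and 2953 with V3.0 only. Border macrophages against neutrophils gave 2573, then 1511 (V3.0 only) and 1643 (V3.1 only). The kits gave 366 genes, 544 with the replicate block and 158 to 405 with a mouse left out. The block changed no member's call. The cocktail gave 90 genes, and 19 with 4 own markers and at most 1 other, 17 with DESeq2, 14 with V3.0 only, 55 with the first gate and 59 without the V3.0 library of mouse 3.

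Log2 fold changes that turned were, for Abca1 in border macrophages against microglia, -0.063 (2 own markers), -0.74 (V3.1 only), -0.50 (first gate), -0.10 (no expression filter), -0.14 (total UMIs), -0.16 (total UMIs and 282 neutrophils) and -0.77 to 0.29 with a mouse left out, and for Abca9 0.032 (V3.0 only) and -0.39 to 0.023. In neutrophils against microglia, Nr1h2 went to -0.72 and Soat1 to -0.023 with total UMIs, and to -0.69 and -0.10 with the 282 as well. In border macrophages against neutrophils, Srebf2 went to 0.47 (V3.1 only), 0.038 (500 genes), 0.72 (total UMIs) and 0.67 (with the 282), and Soat1 to 0.72 and 0.80. Kit differences near 0 turned for Abca1 with DESeq2 (0.0025), RLE (0.0024), 500 genes (0.017), without the V3.0 library of mouse 3 (0.027) and from -0.053 to 0.035 with a mouse left out, for Abca9 from -0.019 to 0.056, and for Insig1 with DESeq2 (0.0026), the block (0.030) and from -0.095 to 0.075. The cocktail difference of Abca1 was 0.023 with V3.0 only. Apart from scaling, which shifts all genes together, and from fits with fewer samples or cells, the cause was not tested.

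The strictest gate left 3 border macrophages and gave no cell type fit. With 40 border macrophages, 2 UMIs set the value of Nr1h2 and 2 UMIs that of Abcg1, and Nr1h3 had 0.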

Other observations

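Monocyte-like cells, which were in no comparison, numbered 76 over the 6 libraries, at a median of 8445.5 UMIs per cell, with summed microglial markers at 0.623% of the microglial level. Abca1 had 4 UMIs in them (6.5 CPM, 2.39% of its microglial level with a 95% exact counting interval of 0.651 to 6.11), and Abca9 had 25 (40.7 CPM, 11.0%). Abcg1 had 45 UMIs (73.2 CPM). Soat1 had 180 UMIs (293 CPM), 269% of its microglial level (230 to 311). Nr1h2 was at 39.0 CPM, Srebf2 at 40.7 CPM and Insig1 at 26 CPM. Nr1h3 had 8 UMIs (13 CPM), against 0.537 CPM in microglia. All 8 came from the V3.0 library of mouse 2, and the other 5 libraries had none. These are pooled values with no test.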
